A study of Mus musculus with 24 samples.

Results

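The Meis and Pbx genes examined here were *Meis1*, *Meis2*, *Meis3*, *Pbx2*, *Pbx3* and *Pbx4*, and their members were the differentially 5-hydroxymethylated regions (DhMRs) that lay inside the GRCm38 span of one of these 6 genes or that carried its Ensembl identifier in the deposited annotation. Of 20726 DhMRs in the series, 12 met this rule, 10 inside a gene span and 2 through the identifier alone. A DhMR is a bin of 200 bp, of which the lists give 198 bp. In it the authors called the level of 5-hydroxymethylcytosine (5hmC) different between a pair of mouse embryonic stem cell (ESC) lines. Both lines had a mixed C57BL/6J-129V background, lacked *Tet1*, *Tet2* and *Tet3*, grew in 2i medium with LIF, and were single puromycin-selected clones that carried a lentiviral human Tet3 at comparable level. Wt25 carried wild-type Tet3, and AA10 carried phosphor-mutant Tet3 in which both cdk5 target serines were replaced by alanine. DNA fragments with 5hmC were recovered with an antibody and sequenced (5hmC-DIP) in 3 libraries of each line, so replicates varied within 1 clone and a difference between lines cannot be told apart from a difference between clones. One list held 12096 DhMRs with more 5hmC in Wt25 (Wt25 DhMRs) and the other 8630 with more in AA10 (AA10 DhMRs).

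Meis and Pbx proteins are homeodomain transcription factors of the TALE class, named for a loop of extra residues in the homeodomain. Pbx proteins bind DNA together with Hox or Meis partners, and Meis proteins lengthen the stay of Pbx in the nucleus. Meis2 acts with Pax6 and Dlx factors in the developing forebrain and eye, and Meis1 acts in hindbrain, limb and blood progenitors. Tet enzymes oxidise 5-methylcytosine in CpG dinucleotides to 5hmC, which in many tissues is found over the bodies and distal elements of genes.

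The DhMRs of these genes were nearly all in the Wt25 direction and were concentrated in *Meis2*. *Meis2* held 7 Wt25 DhMRs and 1 AA10 DhMR, *Pbx4* had 3 Wt25 DhMRs, and *Meis1* had 1 Wt25 DhMR through its identifier. *Meis3*, *Pbx2* and *Pbx3* had none in either list. The share of Wt25 DhMRs was 91.7% of the 12 (95% Wilson interval 64.6 to 98.5%, which covers the number of bins only), against 58.4% of all DhMRs, 73.9% on chromosome 2, which carries *Meis2* and *Pbx3*, and 60.5% on chromosome 8, which carries *Pbx4*. The interval for *Meis2* alone, 7 of 8 or 87.5%, ran from 52.9 to 97.8% and included all of these shares. Neighbouring bins are not independent, and each list is already the outcome of the comparison of the lines, so no test was run on these counts.

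The sequences that show the range of these regions are given 5′ to 3′ on the strand of their gene, from GRCm38.p6, and are named by the distance of their midpoint from the annotated gene start. In the first set CpGs are in capitals. They are the DhMR nearest to the *Meis2* start (chr2:116054203-116054400, Wt25), a touching Wt25 pair of which one holds the most CpGs of the 12 and the other 1 (chr2:116030203-116030400 and chr2:116030003-116030200), the only AA10 DhMR (chr2:115969203-115969400), the DhMR before the *Pbx4* start (chr8:69832203-69832400, Wt25) and that beyond the 3′ end of *Meis1* (chr11:18855603-18855800, Wt25). The *Pbx4* sequence is on the plus strand and the others on the minus strand.
Meis2 at 11.5 kb: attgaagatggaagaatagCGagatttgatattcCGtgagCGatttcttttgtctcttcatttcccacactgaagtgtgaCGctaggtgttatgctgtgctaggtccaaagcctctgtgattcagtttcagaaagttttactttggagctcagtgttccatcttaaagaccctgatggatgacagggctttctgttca
Meis2 at 35.5 kb: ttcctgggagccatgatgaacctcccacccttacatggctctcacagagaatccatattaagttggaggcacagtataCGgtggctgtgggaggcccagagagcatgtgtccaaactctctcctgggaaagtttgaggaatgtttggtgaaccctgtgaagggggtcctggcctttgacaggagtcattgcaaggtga
Meis2 at 35.7 kb: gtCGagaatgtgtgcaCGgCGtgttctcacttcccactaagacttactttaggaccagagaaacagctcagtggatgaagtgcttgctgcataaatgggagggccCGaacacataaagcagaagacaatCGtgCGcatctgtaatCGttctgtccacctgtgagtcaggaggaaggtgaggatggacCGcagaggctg
Meis2 at 96.5 kb, AA10: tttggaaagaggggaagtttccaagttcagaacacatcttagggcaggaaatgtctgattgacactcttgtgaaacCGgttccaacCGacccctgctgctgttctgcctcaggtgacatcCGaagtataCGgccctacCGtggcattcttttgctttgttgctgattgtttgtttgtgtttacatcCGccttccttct
Pbx4 at -0.19 kb: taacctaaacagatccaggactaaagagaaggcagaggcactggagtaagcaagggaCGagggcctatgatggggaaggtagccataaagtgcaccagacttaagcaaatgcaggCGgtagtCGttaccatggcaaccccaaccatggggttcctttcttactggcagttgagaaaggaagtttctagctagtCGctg
Meis1 at 163 kb: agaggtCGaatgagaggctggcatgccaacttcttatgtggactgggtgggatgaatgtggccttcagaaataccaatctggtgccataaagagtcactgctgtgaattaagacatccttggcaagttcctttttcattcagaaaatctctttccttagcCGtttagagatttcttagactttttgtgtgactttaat

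*Meis2* (ENSMUSG00000027210, chr2:115863064-116065839, minus strand, 203 kb) carried its Wt25 DhMRs in the 5′ part of the gene. The 7 lay between 11.5 and 35.7 kb from the gene start, within 24.4 kb of sequence and no farther than 17.6% of the span into the gene. They made 5 separate regions, because the DhMRs at 20.1 and 20.3 kb touched, as did those at 35.5 and 35.7 kb. The gaps between the other neighbours were 2.8 to 8.6 kb. The single AA10 DhMR lay deeper, at 96.5 kb or 47.6% of the span, with 60602 bp between it and the nearest Wt25 DhMR.

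**Figure D1:**
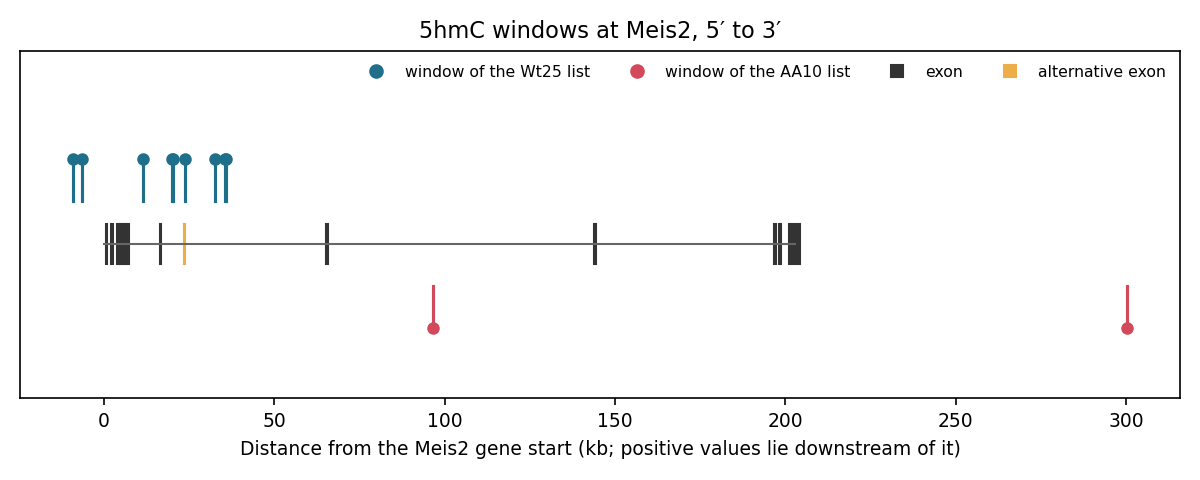
The *Meis2* gene in the direction of transcription, with distance from the gene start in kb on the x axis, exons of a RefSeq transcript as dark boxes (drawn at least 0.5 kb wide), and DhMRs as pins above the line (Wt25) or below it (AA10). The 7 Wt25 DhMRs in the gene lie between 11.5 and 35.7 kb, with 2 more before the start, and the AA10 DhMRs lie at 96.5 kb and 97.5 kb beyond the 3′ end.

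Against the exons of the RefSeq transcript with 12 exons, 1 Wt25 DhMR lay in intron 6 (9.43 kb) and 6 in intron 7 (48.8 kb). The AA10 DhMR lay in intron 8 (78.4 kb), which precedes exon 9, and the coding sequence of the WFxNAR motif in the DNA-recognition helix of the homeodomain ran over exons 9 and 10. None of the 12 exons of this transcript overlapped a DhMR, and neither did the first 5 introns or the last 3. Of the 8 DhMRs, the one at 23.7 kb overlapped an exon that other transcripts include. That exon (chr2:116041939-116042127) is 189 bp or 63 codons long, is used in 9 of 28 RefSeq transcripts, 3 of the 15 curated ones among them, and is coding in all 9. The DhMR covered 125 bp of it together with the splice acceptor before it, as shown here with the exon bases in capitals (chr2:116042003-116042200, minus strand). The capitals begin right after the ag of the acceptor.
Meis2 at 23.7 kb, exon: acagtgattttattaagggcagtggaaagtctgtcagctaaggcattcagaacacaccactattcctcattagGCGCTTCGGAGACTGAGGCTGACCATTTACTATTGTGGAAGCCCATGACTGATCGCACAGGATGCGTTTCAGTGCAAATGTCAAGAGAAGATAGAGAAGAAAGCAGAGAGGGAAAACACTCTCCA

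The distance from the other 6 Wt25 DhMRs of *Meis2* to the nearest RefSeq exon of the gene was 3276 to 11739 bp, and that of the AA10 DhMR was 30731 bp. No *Meis2* DhMR lay near a start site, since the nearest GENCODE start was 10211 bp away or more. The median over all 12 DhMRs was 20.7 kb, against 10954 bp over all DhMRs of the series.

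The upstream side of *Meis2* carried 2 further Wt25 DhMRs, 6164 and 8964 bp before the gene start (chr2:116072003-116072200 and chr2:116074803-116075000). Both lay inside G630016G05Rik, a long non-coding RNA gene, and neither had a gene in the deposited annotation, so they were not members. Counted with them, 9 Wt25 DhMRs spread over 45 kb on both sides of the *Meis2* start. No other Wt25 DhMR lay within 1049 kb on the downstream side of this group or within 973 kb on the upstream side. These 9 were thus the only Wt25 DhMRs in 2.07 Mb, a stretch that also held AA10 DhMRs. Within 2 Mb of the middle of the gene there were 9 listed DhMRs besides those inside *Meis2*, 5 Wt25 and 4 AA10. Within 5 Mb there were 273, of which 93.8% were Wt25 DhMRs (95% Wilson interval 90.3 to 96.1%), and most of these lay 2.5 Mb or more from the gene on the side of higher coordinates. They lay in dense runs, and the interval takes bins as independent, so it is too narrow. An AA10 DhMR 97.5 kb beyond the 3′ end of *Meis2*, in the protein-coding gene BC052040, was the nearest of that list outside the gene.

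**Figure D2:**
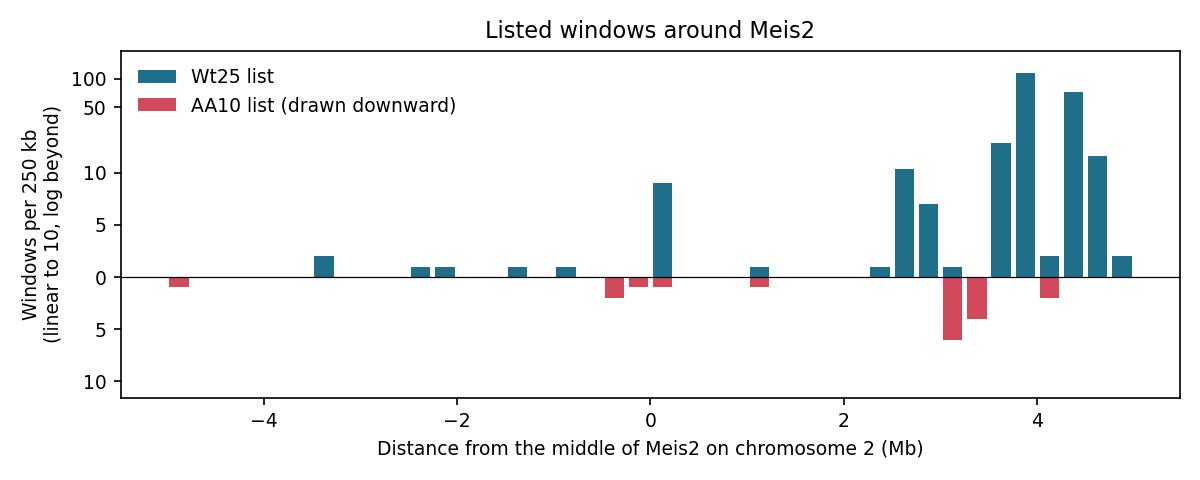
DhMRs per 250 kb within 5 Mb of the middle of *Meis2* on chromosome 2 (x axis in Mb, y axis the number of DhMRs, linear to 10 and logarithmic beyond), with Wt25 DhMRs upward and AA10 DhMRs downward. The 250 kb that start at the middle of *Meis2* and hold its 5′ part have 9 Wt25 DhMRs and 1 AA10 DhMR, and the dense runs of up to 115 Wt25 DhMRs lie 2.5 Mb or more away.

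To read these counts, DhMRs were counted in the same way in other genes. A Wt25 DhMR lay inside 6.57% of all 55413 annotated genes and an AA10 DhMR inside 4.85%, and with the deposited identifier included, 22.0% of protein-coding genes had a Wt25 DhMR and 16.4% an AA10 DhMR. Long genes had more. Among the 1925 protein-coding genes of 100 to 300 kb, the class of *Meis1*, *Meis2* and *Pbx3*, 41.7% had a Wt25 DhMR and 33.9% an AA10 DhMR, so the presence of a DhMR in *Meis2* or its absence from *Pbx3* was common for their length. At least 7 Wt25 DhMRs, the number inside *Meis2*, were held by 2.75% of genes of that length and 0.688% of all protein-coding genes. More were held by 119 protein-coding genes. *Meis2* was chosen with its count known, so these shares only describe where it stands and lend the count no weight. Among genes of 5 to 50 kb, the class of *Meis3*, *Pbx2* and *Pbx4*, 19.1% had a Wt25 DhMR and 14.3% an AA10 DhMR. Of the bins of the gene, 0.690% of the 1015 in *Meis2* were Wt25 DhMRs and 0.0985% AA10 DhMRs, against 0.0888% and 0.0633% of all bins of the chromosomes. The chromosome bins were counted over the full length, with assembly gaps and sequence that could not be listed, which lowers the latter shares.

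*Meis1* (ENSMUSG00000020160, chr11:18879817-19018985, minus strand, 139 kb), the closest relative of *Meis2* in this set, had no DhMR inside its span. Its Wt25 DhMR lay 24017 bp beyond the 3′ end, inside the non-coding gene 8430419K02Rik, and 16454 bp from the nearest start site of that gene. An AA10 DhMR lay 23.8 kb before the *Meis1* start, so the gene was flanked by 1 DhMR of each direction at about the same distance. Around *Meis1*, 47 of the 49 other DhMRs within 2 Mb were Wt25 DhMRs (95.9%, 95% Wilson interval 86.3 to 98.9%, which takes neighbouring bins as independent).

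*Meis3* (ENSMUSG00000041420, chr7:16175090-16186504, plus strand, 11.4 kb) had no DhMR, and its neighbourhood was the most one-sided of the 6. Within 100 kb, 11 Wt25 DhMRs lay downstream and 2 upstream, with no AA10 DhMR. The downstream group began 56.3 kb from the gene at *C5ar2*, a receptor for complement C5a, and continued through *C5ar1*, *Inafm1* and *Ccdc9*, and the upstream pair lay in *Napa*, which encodes an adaptor of membrane fusion. Within 1 Mb of *Meis3* all 161 DhMRs were Wt25 DhMRs, and the 58 bins of the gene held none. Only 19.1% of genes of 5 to 50 kb had a Wt25 DhMR, so having none was common for its length. The nearest AA10 DhMR was 2573 kb away.

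*Pbx4* (ENSMUSG00000031860, chr8:69832491-69872292, plus strand, 39.8 kb), a Pbx gene best known from the testis, was the only Pbx gene of this set with DhMRs. The first of its 3 Wt25 DhMRs ended 91 bp before the annotated gene start, with its midpoint 190 bp before that start. This was the only one of the 12 within 10 kb of a start site. The other two lay 10.6 and 24.8 kb into the gene, both in intron 1 of 26.2 kb, and the one at 24.8 kb was 1680 bp from exon 2. None of the other 6 introns and none of the 8 exons overlapped a DhMR. Upstream of *Pbx4*, 12 further Wt25 DhMRs lay between 21.9 and 99.9 kb away, all but the farthest inside *Gmip*, *Zfp866* or Gm20422, and 1 lay 95.5 kb downstream in *Gatad2a*. Some of these upstream sequences had copies elsewhere. In the DhMR at 68.5 kb, 22.2% of the 32-base words occurred once in the genome, whereas in all 3 *Pbx4* DhMRs every such word occurred once. The nearest AA10 DhMR was 196 kb away, but within 1 Mb of *Pbx4* there were 24 AA10 DhMRs beside 28 other Wt25 DhMRs.

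*Pbx2* (ENSMUSG00000034673, chr17:34591266-34597400, plus strand, 6.13 kb), a broadly expressed Pbx gene, had no DhMR. Its only neighbour within 100 kb was an AA10 DhMR 20.5 kb upstream in *Notch4*, which encodes a Notch receptor, and the nearest Wt25 DhMR was 429 kb away. *Pbx3* (ENSMUSG00000038718, chr2:34171457-34373142, minus strand, 202 kb), which is nearly as long as *Meis2* and lies on the same chromosome, had no DhMR in its 1009 bins and none within 100 kb. The nearest were an AA10 DhMR at 132 kb and a Wt25 DhMR at 190 kb, both assigned to *Mapkap1*. In all, 31 DhMRs that were not members lay within 100 kb of the 6 genes.

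**Figure D3:**
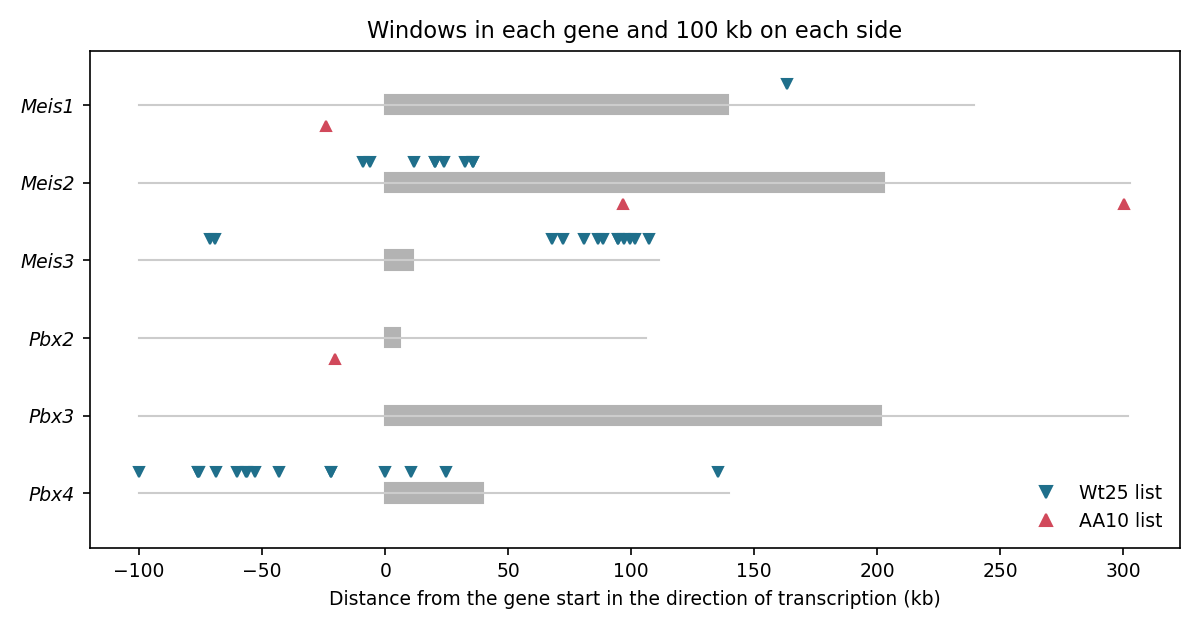
DhMRs in each of the 6 genes (grey bars) and 100 kb on each side, aligned at the gene start and drawn in the direction of transcription (x axis in kb), with Wt25 DhMRs as triangles above and AA10 DhMRs below each line. *Meis2* has Wt25 DhMRs on both sides of its start, *Pbx4* has them in the gene, at its start and upstream, *Meis3* lies between groups that do not reach it, and *Pbx3* has none.

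All 12 DhMRs held at least 1 CpG. Their number was 3.58 ± 2.11 (SD, n = 12) and ranged from 1 to 8, against 3.25 ± 2.52 over all Wt25 DhMRs and 3.16 ± 2.36 over all AA10 DhMRs (SD between single DhMRs). All bins of the 6 gene spans held 1.84 ± 2.48 CpGs (n = 3009), and 26.7% of them held none, against 0.405% of all DhMRs. Within *Meis2* the DhMRs at 35.7 kb (8 CpGs) and 96.5 kb (6 CpGs) were among the CpG-rich bins, since 1.58% and 4.83% of the bins of the gene held as many or more. The touching DhMRs at 20.1 and 20.3 kb held 2 and 1, and the neighbour at 35.5 kb held 1 beside the 8 of its partner, values that 52.0 to 79.7% of the bins of the gene reached. In 9 of the 12 DhMRs the CpG number was higher than the mean of the 10 bins on each side, in the closest case 2 against 1.95. Such a peak was general to the lists. All Wt25 DhMRs held 3.25 CpGs on average, and the bins 200 bp to either side held 2.61 and 2.58. For all AA10 DhMRs the means were 3.16, 2.52 and 2.54. The bins with 10 or more CpGs were not listed in any of the 6 genes, 9 bins in *Meis2* (6 of them within 2 kb of a start site), 10 in *Pbx3*, 7 each in *Meis1* and *Pbx2*, and 2 each in *Meis3* and *Pbx4*. Such DhMRs were rare in the whole series too. Of all Wt25 DhMRs, 0.703% held 10 CpGs, 0.471% held 11 and 1.24% held 12 or more. For all AA10 DhMRs the shares were 0.417%, 0.545% and 0.985%, so their absence from 12 DhMRs is no trait of these genes. *Pbx3* and *Meis1* held 75 and 85 bins with 4 or more CpGs, and *Meis2* held 154, of which 5 were listed. The share listed among all bins of the genome with 4 or more CpGs is not given here.

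**Figure D4:**
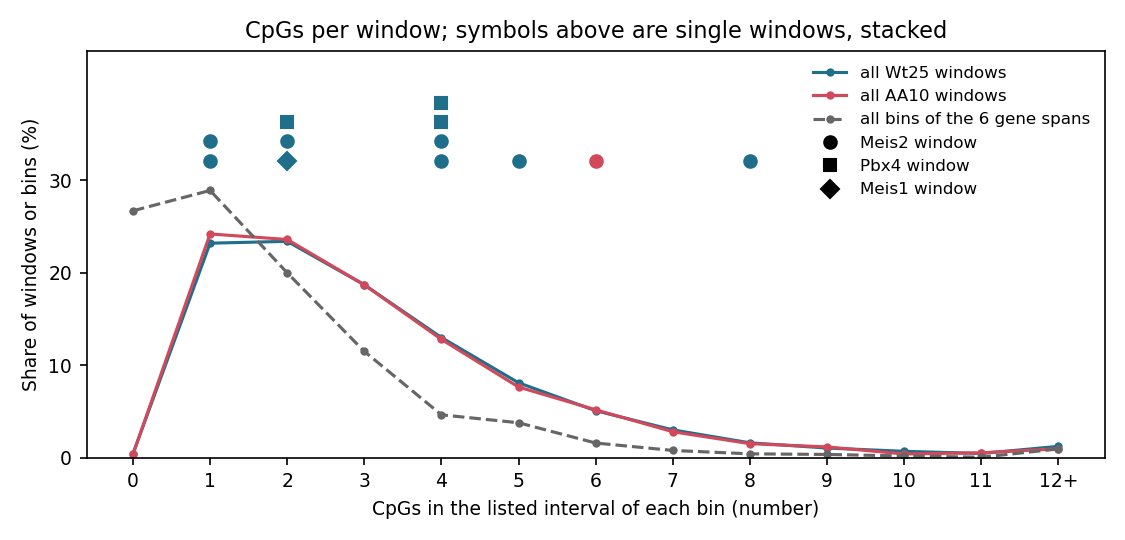
CpGs in the 198 bp interval (x axis, number) for all Wt25 DhMRs, all AA10 DhMRs and all bins of the 6 gene spans (lines, y axis in percent), with the 12 Meis and Pbx DhMRs as symbols stacked above without a scale, blue for Wt25 and red for AA10. The 12 lie between 1 and 8 CpGs, within the range of the other DhMRs, and none is at 0, where 26.7% of the bins of these genes lie.

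The 12 DhMRs carried few repeats. On average 12.3% of their bases had the repeat mark of the assembly, against 31.9% over all DhMRs and 20.9% over the bins of the 6 genes. No base was marked in 4 of the 12 (33.3%), near the 29.2% of the bins of the 6 genes and the 23.9% of all DhMRs. All 32-base words occurred once in the genome in 11 of the 12. The exception was the *Meis2* DhMR at 32.5 kb (chr2:116033203-116033400), in which 76.0% of the words occurred once and the most frequent word had 15640 copies. The share of all DhMRs with only such single words is not given here, so 11 of 12 cannot be called a trait of these genes.

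Meis and Pbx proteins recognise short sequences, and the DhMRs were searched on both strands for the Meis motif TGACAG, the Pbx-Hox motif TGATNNAT and the Pbx-Meis motif TGATTGAC. A match is a description of the letters and not a site. At least 1 motif was found in 6 of the 12 DhMRs (50.0%, 95% Wilson interval 25.4 to 74.6%), against 19.3% of all DhMRs and 23.9% of the bins of the 6 gene spans. With the search limited to the central 100 bp, the share was 25.0%. The shares of all DhMRs and of the gene bins are for the whole 198 bp, so they cannot be set beside this value. TGACAG was found in 4 (33.3%, against 12.3% of all DhMRs and 13.6% of the gene bins), at 11.5, 23.7 and 35.5 kb in *Meis2* and at 10.6 kb in *Pbx4*. TGATNNAT was found in 2 (16.7%, against 7.59% of all DhMRs and 11.8% of the gene bins), at 11.5 and 32.5 kb in *Meis2*. In the DhMR at 11.5 kb the letters TGATGGAT and TGACAG shared 1 base, so that both motifs stood in 1 stretch, which can be read near the 3′ end of the sequence printed first. TGATTGAC, found in 0.473% of all DhMRs and 0.399% of the gene bins, was found in the AA10 DhMR of *Meis2*. None of the 3 motifs was found in the RefSeq promoters of *Meis1*, *Meis2*, *Meis3*, *Pbx2* and *Pbx4* (250 bases before to 50 after the start), while TGACAG was found in 19.2%, TGATNNAT in 8.85% and TGATTGAC in 0.770% of the 32851 promoters of that table. Of these 5 promoters, that of *Pbx4* overlapped a DhMR.

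Further TALE genes and the known partners of Meis2 were described with the same lists. A DhMR inside the gene was found in 13.4% of protein-coding genes for Wt25 and 10.1% for AA10. With the deposited identifier included, these shares were 22.0% and 16.4%, to be set beside the counts by identifier below. Of 11 further TALE genes, 3 held a Wt25 DhMR inside (*Pknox2*, *Irx1* and *Mkx*) and none an AA10 DhMR. Each of these 3 held 1 inside. With the deposited identifier included, as for the members, 6 of the 11 had a Wt25 DhMR and 3 an AA10 DhMR. By identifier *Irx3* had more Wt25 DhMRs than *Meis2*, 10 beside 1 AA10 DhMR, all outside its span. One Wt25 DhMR lay at -3.63 kb from the *Irx3* start and the others at 168 to 241 kb. All Wt25 DhMRs of *Meis2* lay inside the gene, so the counts of *Irx3* and *Meis2* are not alike. Of 14 genes of the retinoic acid pathway, which induces Meis genes, 4 held Wt25 DhMRs inside and none an AA10 DhMR. These were the receptor genes *Rara* (6 DhMRs), *Rarg* (3), *Rarb* (2) and *Rxra* (1). With the identifier included, 6 of the 14 had a Wt25 DhMR and 1, *Cyp26a1*, which encodes an enzyme that breaks down retinoic acid, had an AA10 DhMR. Of *Pax6*, *Dlx1*, *Dlx2* and *Otx2*, 1 held a DhMR inside, a Wt25 DhMR 12.1 kb into *Otx2*, which encodes a homeodomain factor of the forebrain. With the identifier included, 3 of these 4 had a Wt25 DhMR, and *Dlx2* also had 2 AA10 DhMRs. Of 39 Hox genes, whose proteins bind DNA with Pbx, 5 held a Wt25 DhMR and 8 an AA10 DhMR inside, and 8 and 12 had one with the identifier included. Some Hox spans overlap or touch, and a DhMR was counted in each gene it overlapped. *Hoxd3* and *Hoxd4* shared DhMRs, as did *Hoxc5* and *Hoxc6*, and *Hoxa9* and *Hoxa10*, so these gene counts are not counts of separate loci. By cluster, HoxA held 15 AA10 DhMRs and no Wt25 DhMR, HoxB held 4 Wt25 and 1 AA10, HoxC 2 Wt25 and 6 AA10, and HoxD 3 Wt25 and 2 AA10.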

How the data were processed

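5hmC-DIP was sequenced in 3 libraries each of Wt25 and AA10 ESCs. The authors mapped unique reads to GRCm38 with STAR, removed duplicates with Picard and tested 200 bp bins with MEDIPS (*P* under 0.05, fold change of at least 1). Bins on IgG-DIP peaks, tandem repeats or low complexity sequence were taken out by them, and HOMER gave the gene of each remaining bin. The authors' deposited lists hold positions and, for most bins, a gene, with replicates pooled and without read count, fold change or *P*-value. The depth behind a bin is therefore unknown, and no replicate error could be given.

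Bins were placed on GENCODE vM21 gene spans (at least 1 bp of overlap) and RefSeq exons. CpGs, repeat marks, motifs and 32-base words were read from GRCm38.p6. The 6 genes, their member bins and the lists were chosen with earlier results of these data known, and no test was run. The genes named are the members, those that hold or flank their DhMRs and the listed TALE, Hox, retinoic acid and partner genes with a DhMR inside. *Irx3* and *Cyp26a1* were added after their values were seen, and all partner genes are named. Counting functions passed all 9 checks on simulated data. RNA-seq, H3K27ac and input libraries were not analysed here, and 1 gene of the TALE list is not reported here. Python 3.11.15, numpy 2.4.6, scipy 1.17.1, numba 0.67.0, Biopython 1.88 and matplotlib 3.10.9 were used.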

Additional observations from a re-analysis of the deposited data

How the results depend on the processing

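No paired analysis was possible because no result comes from a test and the lists pool the replicates. Leaving out a replicate was not possible for the same reason. Of 43 alternatives, 36 stayed close to the value reported: counts within 1.5 times, shares within their 95% Wilson interval, and means and distances within 1 SD. These limits are wide. The mean CpG number of 3.58 became 5.25 with 50 bp added on each side and still counted as close. Keeping only DhMRs under 50% repeat-marked left all 12, so that alternative could not change a value. The counts of Wt25 DhMRs stayed between 9 and 12 over the 6 genes and between 5 and 9 in *Meis2* under other rules for a window in a gene, RefSeq spans and joined windows, and the AA10 count stayed at 1. Without *Meis2*, 100% of the remaining 4 DhMRs were Wt25 DhMRs. The share with a motif fell to 25.0% within the central 100 bp, where fewer bases were searched. The share of genes with a DhMR inside was 13.4% (Wt25) and 10.1% (AA10) for protein-coding genes only, and 8.71% and 6.44% by the deposited identifier alone, because the set of genes or the rule differs. Within 50 kb in place of 100 kb, a distance chosen after seeing the data, 9 DhMRs flanked the genes in place of 33, members by identifier included. The lists give no depth, so a gene without a DhMR may differ below what this depth could show.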
